A study of Mus musculus with 10 samples.

Results

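Toll-like receptors (TLRs) are the sensors with which microglia, the resident macrophages of the brain, detect microbial products, and 10 of their genes were followed by symbol among the 53697 genes of the deposited tables: Tlr1, Tlr2, Tlr3, Tlr4, Tlr5, Tlr6, Tlr7, Tlr9, Tlr12 and Tlr13. Each symbol belonged to a single gene ID, and all 10 genes passed the filter on low counts. Bulk RNA-seq was performed on 10 libraries of microglia sorted from female, untreated mice, 5 labelled Bhlhe40/41-DKO (Bhlhe40-/-Bhlhe41-/-, double knockout, DKO) and 5 wild type (WT, C57BL/6J or Rosa26Stop-YFP, not assigned to libraries), all on the C57BL/6 background. Their ages, no less than 2 and 6 months, are not given per library. The sort took viable CD45.2+CD11b+ cells that carried neither Ly6C, Ly6G, MHCII nor CD38. In the DKO mice both genes, which encode basic helix-loop-helix repressors, are lost in the whole body as far as the genotype label says, so other cells of the brain lack them too. Libraries are named by genotype and label number, DKO 1 to DKO 5 and WT 1 to WT 5. The labels call them biological replicates without saying whether each is 1 mouse. The p-values here therefore measure only how these libraries vary, which may in part be technical.

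TLRs are membrane proteins with leucine-rich repeats that bind the ligand and a cytosolic TIR domain that recruits adaptors. One group acts at the cell surface. Tlr2 pairs with Tlr1 to bind triacylated lipopeptides of bacteria and with Tlr6 to bind diacylated ones, Tlr4 detects lipopolysaccharide, and Tlr5 detects flagellin. The other group acts in endosomes, where Tlr3 detects double-stranded RNA, Tlr7 single-stranded RNA, Tlr9 unmethylated CpG DNA and, in mice, Tlr13 bacterial ribosomal RNA and Tlr12 the profilin of apicomplexan parasites. Adaptors such as Myd88 pass the signal to kinases and then to NF-kB and IRF transcription factors, which induce cytokines and chemokines.

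The sequences before the Tlr1 gene are shown here because Tlr1 was the one receptor that passed the test of DKO against WT microglia and lies next to Tlr6, its close paralog, which did not pass. Tlr1 (ENSMUSG00000044827.10) occupies positions 64924679 to 64933563 of chromosome 5 (GRCm38, minus strand), and Tlr6 (ENSMUSG00000051498.6) positions 64952031 to 64960097 on the same strand, 18.47 kb away. The first stretch lies directly upstream of the annotated gene, with capitals for a match to GAGGAAGT, a sequence bound by the ETS factor PU.1. The second lies within exon 2 of the longest annotated Tlr1 transcript and before the start of a shorter one, with capitals for CACGTG, the E-box that basic helix-loop-helix factors bind. The third lies in a window at a second Tlr6 start site, with capitals for the run that holds overlapping matches, on the opposite strand, to the IRF motif (GAAA, any pair of bases, GAAA), letters known from interferon response elements. All are written from the RefSeq promoter table on GRCm38.p6, 5′ to 3′ on the minus strand.
Tlr1, chr5:64933564-64933808: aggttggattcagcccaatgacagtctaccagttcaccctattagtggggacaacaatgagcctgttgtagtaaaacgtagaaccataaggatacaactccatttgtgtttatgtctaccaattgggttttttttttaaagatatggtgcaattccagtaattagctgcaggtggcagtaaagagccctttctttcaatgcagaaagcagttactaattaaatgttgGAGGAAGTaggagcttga
Tlr1, chr5:64932877-64932906: ccggaaggcataCACGTGtccccatctctc
Tlr6, chr5:64959260-64959289: ctattctTTTCTCTTTCACTTTCtgtttga

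The table held promoter windows of 300 bases (250 before and 50 after a start site) for 8 of the 10 receptors, Tlr1 and Tlr6 with a pair of windows each. The motifs were searched on both strands, and a match is a description of these letters only. CACGTG was found in the second Tlr1 window, beginning 195 bases before the start site, and in no other receptor window. It occurs in 7.15% of all 32851 windows of the table, and 11.7% of the 9746 tested genes with a window hold it. GAGGAAGT was found 23 bases before the start site in the first Tlr1 window and 10 bases after it in the Tlr9 window, and 3.20% of all windows hold it. The IRF motif was found only in the Tlr6 window, beginning 116 and 110 bases before the start site, and 3.44% of all windows hold it. No value measured here bears on binding at these letters.

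RNA composition differed between libraries, by mitochondrial share in a few of them and by a noncoding gene mostly between the genotypes. How far these differences affect the receptor values was not tested beyond the settings given below. Total estimated counts were 22483284 to 26109349 in DKO and 23382114 to 25871082 in WT libraries. Mitochondrial genes took 1.58% of counts in DKO 3, 1.75% in WT 1 and 1.54% in WT 5, against 0.986% to 1.16% in the other 7 libraries. In addition, the short noncoding gene Gm23935 took 23.2% to 26.6% of TPM in DKO libraries and 20.3% in WT 3, against 2.85% to 6.60% in the other WT libraries, so that counts and not TPM are the values used. The libraries numbered 4 and 5 also stood apart from those numbered 1 to 3 in both genotypes, for example in Mrc1 and Cd79b, and the labels do not say what equal numbers share. With a term for these sets, Tlr1 was again the one receptor called (log2 fold change 1.20, edgeR adjusted p = 0.000209). Of the targeted genes, Bhlhe40 had 1 to 8 counts in DKO and 4 to 28 counts in WT libraries and was too low to be tested, and Bhlhe41 averaged 50.9 ± 8.46 CPM (counts relative to library size, scaled by TMM) in DKO and 35.9 ± 6.67 CPM in WT microglia (SD, n = 5 each). Its log2 fold change, DKO over WT, was 0.50 and did not pass edgeR's quasi-likelihood test at 0.05 (adjusted p = 0.0707, Benjamini-Hochberg over 13916 genes). The count of Bhlhe41 was therefore not lower in the libraries labelled DKO. The deleted exons are not named in the sources used here, so counts over the whole gene do not check the labels.

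DKO microglia held more than 2-fold the Tlr1 RNA of WT microglia, and the other 9 receptors did not pass the test. Tlr1 averaged 179 ± 25.4 CPM in DKO microglia and 77.7 ± 12.4 CPM in WT microglia (SD, n = 5 each). The log2 fold change was 1.20 (standard error 0.13, 95% interval 0.91 to 1.497, edgeR adjusted p = 0.000364). With 1 of 10 receptors higher and 0 lower, the share of calls stood beside 6.19% of all genes tested called in either direction, 4.34% higher and 1.85% lower. No receptor other than Tlr1 had an unadjusted edgeR p under 0.05, which 3244 of all 13916 genes tested had. Each of DESeq2, robust edgeR and limma voom, weighted by library quality or not, called 1 receptor. The median log2 fold change of the 10 receptors was -0.04, beside -0.01 over all genes tested. Since these are bulk samples, more cells of a type and more RNA per cell cannot be told apart.

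**Figure D1:**
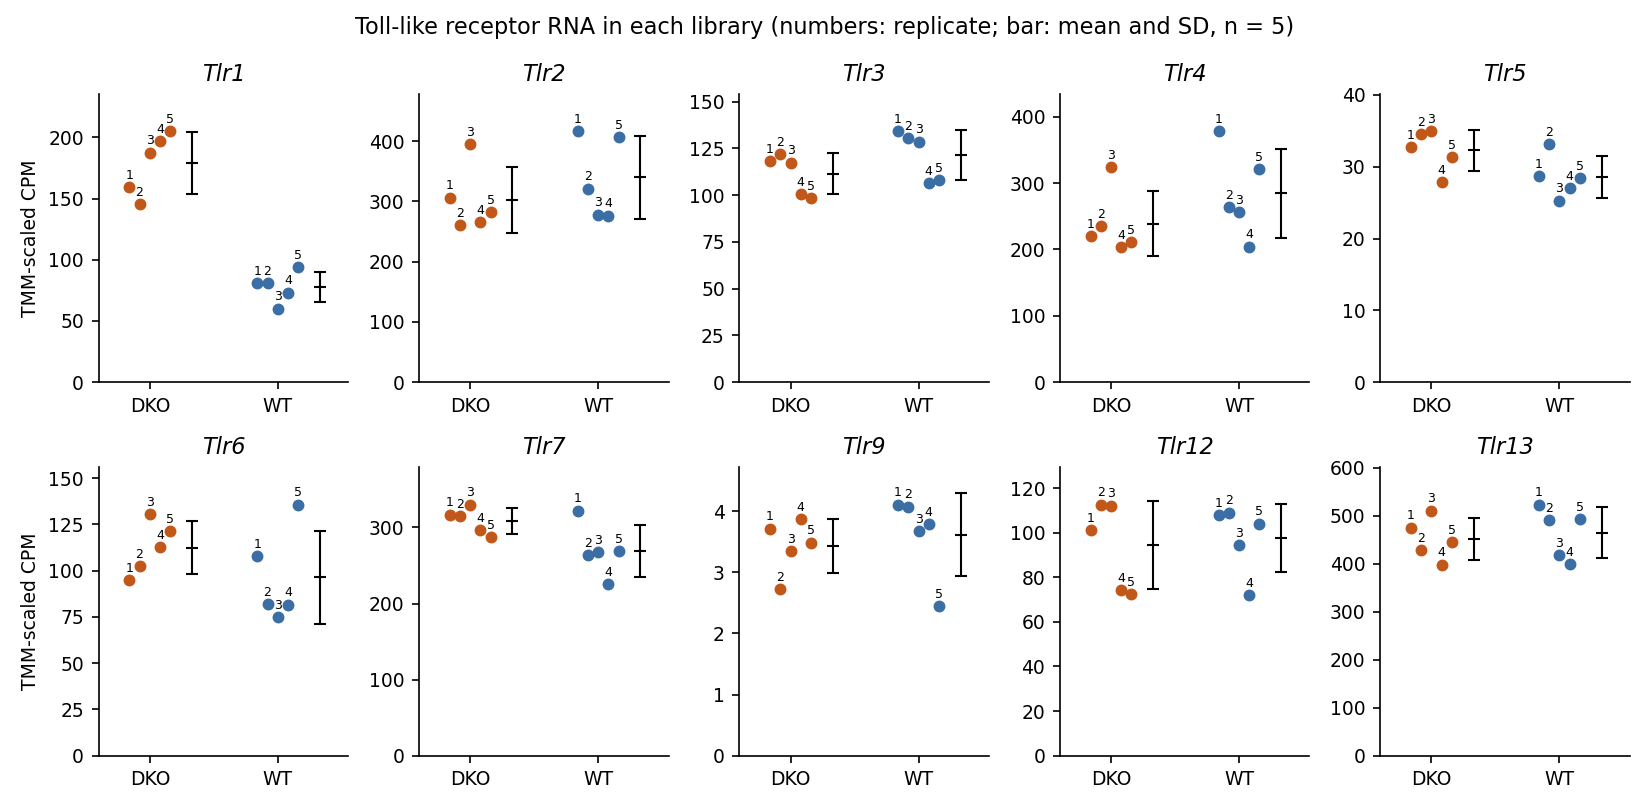
TMM-scaled CPM of each of the 10 receptors, with 1 point per library, numbered by its label number, DKO (orange) left of WT (blue), and the mean and SD of 5 libraries beside each group; all axes start at 0. The 5 DKO points of Tlr1 (146 to 205 CPM) lie above its 5 WT points (60.1 to 93.8 CPM), and in every other panel the genotypes overlap.

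Tlr1 separated the genotypes in every library. DKO 1 to DKO 5 held 159, 146, 188, 197 and 205 CPM, and WT 1 to WT 5 held 80.8, 81.0, 60.1, 73.1 and 93.8 CPM. The lowest DKO library thus lay above the highest WT library, a separation with DKO above WT that 4.33% of all genes tested also had (7.62% in either direction). In estimated counts this was 3267 to 4828 per DKO and 1520 to 2493 per WT library. The higher level was seen both in the libraries with more mitochondrial RNA and in the others. Without DKO 3, WT 1 and WT 5, the 4 remaining DKO libraries held 146 to 205 CPM and the 3 remaining WT libraries 60.1 to 81.0 CPM (log2 fold change 1.31, standard error 0.16, edgeR adjusted p = 0.00287). WT 3, the WT library with a Gm23935 share like that of DKO libraries, had the lowest Tlr1 level of all. The call was made in 18 of 19 other settings, with log2 fold changes of 0.78 to 1.32, and in all 10 fits that left out 1 library (1.12 to 1.28, edgeR adjusted p 0.00022 to 0.00209). With the libraries numbered 4 and 5 alone, 2 per genotype, the log2 fold change was 1.26 but did not pass (edgeR adjusted p = 0.0676). With those numbered 1 to 3 alone it was 1.147 (edgeR adjusted p = 0.0225).

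**Figure D2:**
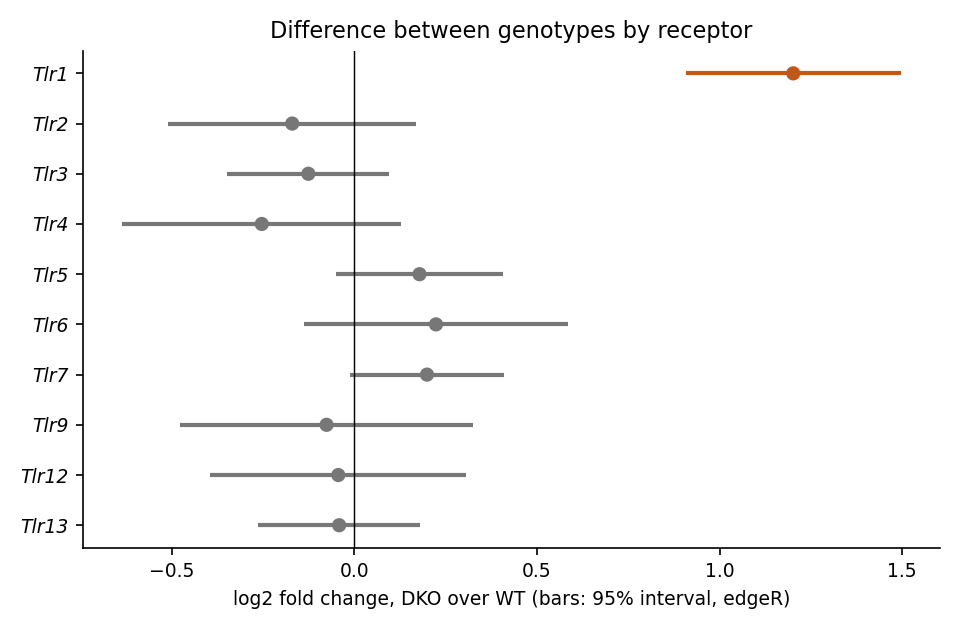
Log2 fold change of each receptor, DKO over WT (points), with its 95% interval from edgeR (bars), and a line at 0. The interval of Tlr1 runs from 0.91 to 1.497, and the intervals of the 9 other receptors (grey) include 0.

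Because Tlr1 and Tlr6 are close in sequence, reads can fit both. Of the 31-base windows of the annotated Tlr1 transcripts, 18.3% also occur in those of Tlr6, and of the 150-base windows 4.30%. Both genes have fractional estimated counts in all 10 libraries, the sign of reads split between genes, while Tlr4 does in 5 and the other receptors in none. The sum of both genes, chosen after the data were seen, does not depend on that split. It averaged 291 ± 37.2 CPM in DKO and 174 ± 36.5 CPM in WT microglia (SD, n = 5 each), and its ranges, 248 to 327 CPM in DKO and 135 to 229 CPM in WT libraries, did not overlap. Its log2 fold change was 0.74 (standard error 0.14, edgeR adjusted p = 0.013).

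Tlr6, the partner of Tlr2 for diacylated lipopeptides, held 94.9, 102, 131, 113 and 121 CPM in DKO 1 to DKO 5, and 108, 81.8, 74.8, 81.7 and 136 CPM in WT 1 to WT 5. The genotypes overlapped through WT 1 and WT 5, the WT libraries with more mitochondrial RNA, which were also the highest in Tlr6. Over all libraries the log2 fold change was 0.22 (standard error 0.17, 95% interval -0.14 to 0.59, edgeR adjusted p = 0.443). Without WT 1 and WT 5 it was 0.50 and passed (edgeR adjusted p = 0.0472), and without DKO 3 as well it was 0.44 and did not pass (edgeR adjusted p = 0.0697). In the libraries other than these 3, Tlr6 ranged from 94.9 to 121 CPM in 4 DKO and from 74.8 to 81.8 CPM in 3 WT libraries. The part of mitochondrial RNA content or of the split of reads with Tlr1 in this difference was not tested.

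Tlr2, the shared subunit of both lipopeptide receptors, had 306, 261, 395, 266 and 282 CPM in DKO 1 to DKO 5 and 417, 321, 278, 276 and 407 CPM in WT 1 to WT 5. DKO 3, WT 1 and WT 5 were the highest libraries of their genotypes, and the ranges overlapped. The log2 fold change was -0.17 (95% interval -0.51 to 0.17, edgeR adjusted p = 0.540). Tlr4, the lipopolysaccharide receptor, showed the same libraries on top, with 220, 235, 324, 203 and 211 CPM in DKO 1 to DKO 5 and 378, 264, 256, 204 and 321 CPM in WT 1 to WT 5. Its log2 fold change was -0.25 (95% interval -0.64 to 0.13, edgeR adjusted p = 0.405). Tlr5, the flagellin receptor, was low in both genotypes, at 27.9 to 34.96 CPM in DKO and 25.3 to 33.2 CPM in WT libraries, with a log2 fold change of 0.18 (95% interval -0.05 to 0.41, edgeR adjusted p = 0.330).

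Among the endosomal receptors, Tlr7 came closest to the threshold and Tlr13 was the most abundant per length. Tlr7 had 317, 315, 330.0, 296 and 287 CPM in DKO 1 to DKO 5, and 322, 263, 267, 225 and 269 CPM in WT 1 to WT 5. WT 1 was the only WT library that reached the DKO range, and the log2 fold change was 0.20 (95% interval -0.01 to 0.41, unadjusted p = 0.0620, edgeR adjusted p = 0.239). Without DKO 3, WT 1 and WT 5 the ranges of Tlr7 were 287 to 317 CPM in 4 DKO and 225 to 267 CPM in 3 WT libraries. Its adjusted p stayed at 0.125 or more (edgeR and the other tools) in every other setting and with any library left out. Tlr3, the receptor of double-stranded RNA, ranged from 98.6 to 122 CPM in DKO and from 107 to 134 CPM in WT libraries. Libraries 4 and 5 were its lowest in both genotypes, and with a term for the sets its standard error was 0.05 in place of 0.10, without a call (edgeR adjusted p = 0.157). Its log2 fold change was -0.13 (95% interval -0.35 to 0.10, edgeR adjusted p = 0.484). On log2(TPM + 1) it passed as lower (limma, -0.47, adjusted p = 0.0330), a scale on which the median of all genes was -0.26, so that Tlr3 lay 0.21 below that median.

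Tlr13 ranged from 398 to 510.1 CPM in DKO and from 398 to 523 CPM in WT libraries (log2 fold change -0.04, 95% interval -0.26 to 0.18, edgeR adjusted p = 0.836). Tlr12 ranged from 72.6 to 113 CPM in DKO and from 72.1 to 109 CPM in WT libraries (log2 fold change -0.04, 95% interval -0.40 to 0.31, edgeR adjusted p = 0.895). The ranges of both receptors nearly coincided between genotypes, while within DKO microglia Tlr12 had its highest values in DKO 1 to DKO 3 and its lowest in DKO 4 and DKO 5. Tlr9, the receptor of CpG DNA, was scarce, with 61 to 95 counts per DKO and 65 to 114 counts per WT library, or 2.72 to 3.87 CPM in DKO and 2.44 to 4.11 CPM in WT libraries. Its log2 fold change was -0.08 (95% interval -0.48 to 0.33, edgeR adjusted p = 0.836), and at this depth the interval leaves room for changes of up to about these sizes in either direction.

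Of the libraries with more mitochondrial RNA, DKO 3 and WT 1 were the highest of their genotype for several receptors, and WT 5 for fewer. DKO 3 was the highest DKO library for 6 of the 10 receptors (Tlr2, Tlr4, Tlr5, Tlr6, Tlr7 and Tlr13), and WT 1 the highest WT library for 6 (Tlr2, Tlr3, Tlr4, Tlr7, Tlr9 and Tlr13). WT 5 was the highest for 2 (Tlr1 and Tlr6) and the lowest WT library for Tlr9. The share of all genes tested that were highest in each of these libraries was not counted. The part of these libraries in the results of these receptors other than Tlr1 was tested only by leaving them out.

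**Figure D3:**
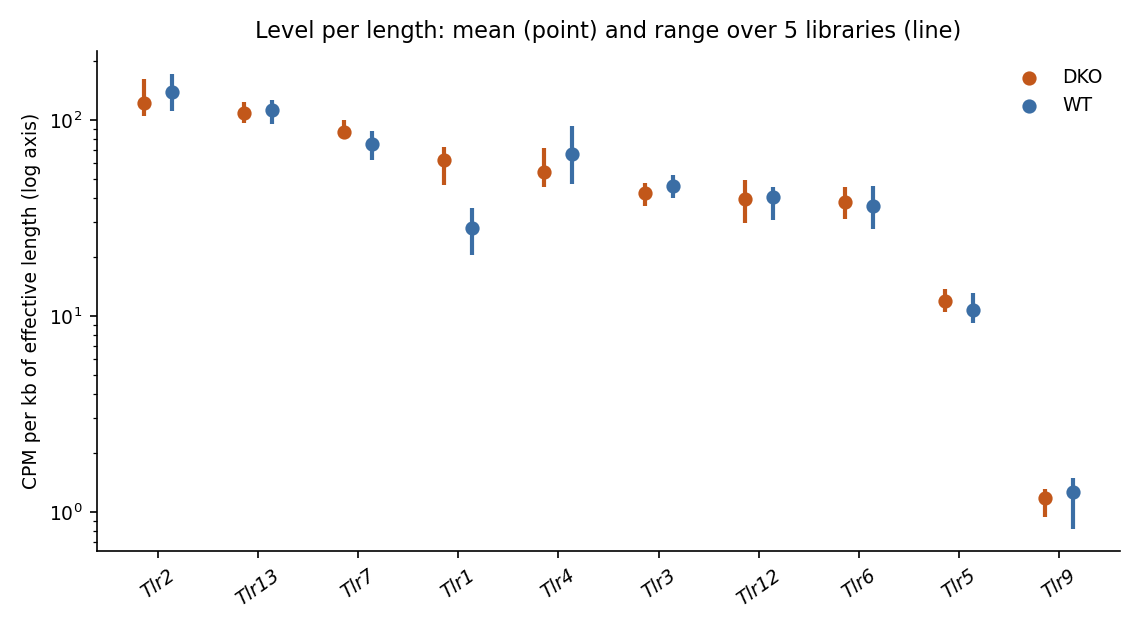
Level of each receptor as CPM per kb of effective length on a log axis, DKO (orange) left of WT (blue), with the mean (point) and the range over 5 libraries (line), in the order of the DKO means. Tlr1 stands at 62.7 in DKO, the 4th highest receptor, and at 28.2 in WT, the 8th.

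Per length, Tlr2 and Tlr13 led in both genotypes and Tlr9 came last, and Tlr1 took a different place in each. In DKO microglia the mean levels, as CPM per kb of effective length, were 122 for Tlr2, 108 for Tlr13, 87.2 for Tlr7, 62.7 for Tlr1, 54.5 for Tlr4, 42.4 for Tlr3, 39.7 for Tlr12, 38.2 for Tlr6, 11.97 for Tlr5 and 1.18 for Tlr9. In WT microglia they were 139 for Tlr2, 113 for Tlr13, 75.5 for Tlr7, 67.4 for Tlr4, 46.3 for Tlr3, 40.4 for Tlr12, 36.4 for Tlr6, 28.2 for Tlr1, 10.8 for Tlr5 and 1.26 for Tlr9. The order of neighbours was not equally firm. Within DKO libraries Tlr1 exceeded Tlr4 in 3 of 5 and Tlr12 exceeded Tlr6 in 3 of 5, and in WT libraries Tlr12 exceeded Tlr6 in 3 of 5, so these neighbours did not differ beyond their spread. Tlr6 exceeded Tlr1 in 5 of 5 WT libraries, though their ranges over libraries overlapped, and Tlr7 exceeded Tlr1 in 5 of 5 DKO libraries with ranges apart. The summed level of the 10 receptors was 568 ± 64.3 in DKO and 558 ± 92.1 CPM per kb in WT microglia (SD, n = 5 each), of which Tlr1 made up 11.1% in DKO and 5.06% in WT.

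The ratio of Tlr1 to Tlr6 within a library, which removes what scales both genes alike, also separated the genotypes. It was 1.80, 1.27, 1.47, 1.78 and 1.93 in DKO 1 to DKO 5, and 0.699, 0.843, 0.737, 0.844 and 0.775 in WT 1 to WT 5, as a ratio of CPM per kb. By these estimates Tlr1 was the more abundant of the pair in every DKO library and Tlr6 in every WT library. In WT 2 the CPM were close (80.99 for Tlr1, 81.75 for Tlr6). The ratio depends on how reads that fit both genes were split and on the effective lengths, and their part was not tested. Relative to Tlr2, the common partner of Tlr1 and Tlr6, Tlr1 stood at 0.523 ± 0.116 in DKO and 0.204 ± 0.023 in WT microglia (SD, n = 5 each). It ranged from 0.414 to 0.657 in DKO and from 0.179 to 0.234 in WT libraries. Tlr6 relative to Tlr2 stood at 0.318 ± 0.049 in DKO and 0.261 ± 0.013 in WT microglia (SD, n = 5 each), and 4 of 5 DKO libraries lay above all WT libraries, while DKO 1 (0.253) lay within the WT range. These ratios contain the Tlr1 counts that edgeR tested and are given as a description.

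**Figure D4:**
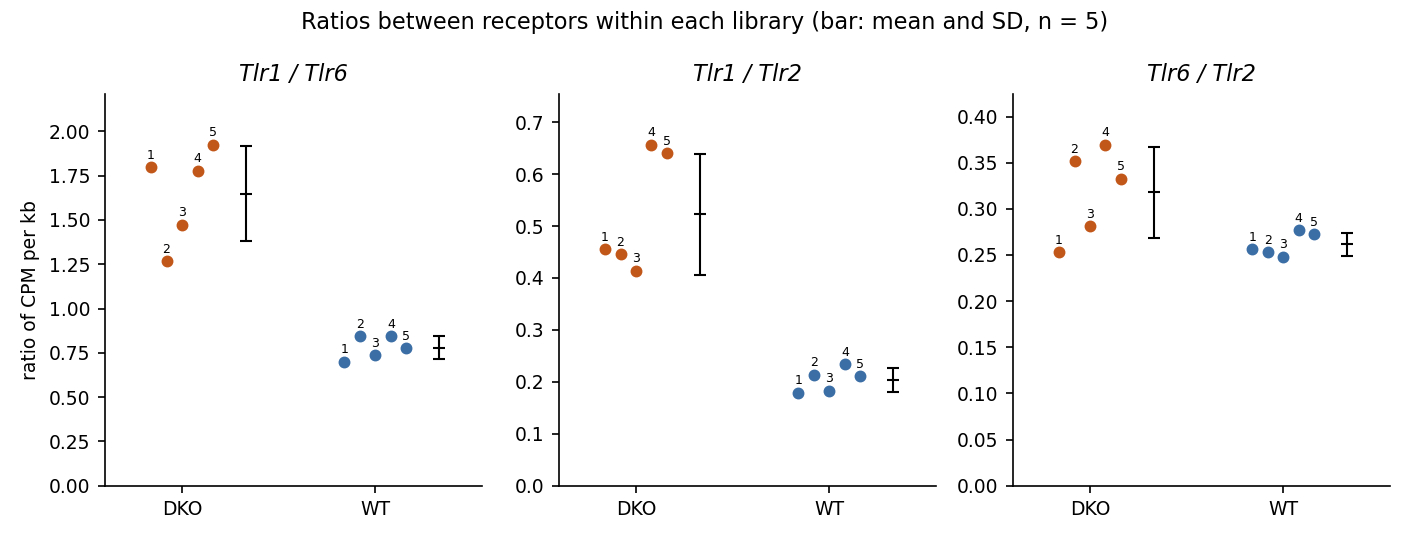
Ratios of CPM per kb between Tlr1, Tlr6 and Tlr2 within each library, with 1 point per library, DKO (orange) left of WT (blue), and the mean and SD of 5 libraries. Tlr1 over Tlr6 lies at 1.27 to 1.93 in DKO and at 0.699 to 0.844 in WT libraries.

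The deposited tables also give for each gene a transcript length weighted by the abundance of its isoforms, a readout separate from the count. For Tlr1 it was 2624 ± 101 bases in DKO and 2574 ± 91.8 bases in WT microglia (SD, n = 5 each; two-sided exact permutation test, p = 0.452). The largest difference was that of Tlr6, 2883 ± 152 bases in DKO and 2639 ± 208 bases in WT microglia (SD, n = 5 each; exact permutation p = 0.0714, adjusted over 10 receptors 0.714). None of the 10 receptors passed, at an adjusted or an unadjusted p of 0.05. For Tlr2 and Tlr9, with 1 annotated transcript each, the length was the same in every library (3014 and 3478 bases), so the test could not call them. With effective length as an offset, the log2 fold change of Tlr1 was 1.18 (edgeR adjusted p = 0.00117) and that of Tlr6 was 0.10 (edgeR adjusted p = 0.738). In the GENCODE M21 annotation Tlr1 has 3 transcripts of 419 to 3025 bases.

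Within 500 kb on either side of Tlr1, 17 genes were tested and 2 were called, beside 6.19% of all genes tested. Of these calls 1 is Tlr1 itself, on which the window was centred because it was called. The other is Fam114a1, which lies 36.51 kb from Tlr1 on the opposite strand. Fam114a1 averaged 14.3 ± 0.62 CPM in DKO and 10.4 ± 1.51 CPM in WT microglia (SD, n = 5 each; log2 fold change 0.47, edgeR adjusted p = 0.0450). Tlr6 lies between Tlr1 and Fam114a1 and was not called. The other receptors are spread over chromosomes 1 (Tlr5), 3 (Tlr2), 4 (Tlr4 and Tlr12), 8 (Tlr3), 9 (Tlr9) and X (Tlr7 and Tlr13), none on chromosome 6, which carries Bhlhe40 and Bhlhe41. The library kit does not mark strand, and of the receptors only Tlr3 overlaps another annotated gene, the antisense Gm45542, which stood at 0.0513 CPM in DKO and 0.0154 CPM in WT microglia.

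Markers of microglia and of other cells were compared as a check of the sort, whose gates required CD45.2 and CD11b and left out cells with Ly6C, Ly6G, MHCII or CD38, and so would remove most classical monocytes, neutrophils, B cells, dendritic cells and cells that are not leukocytes. The counts of called markers stand beside 4.34% called higher and 1.85% called lower over all genes tested. The 9 microglial markers were all tested, summing to 74960 to 87910 CPM in DKO and 77360 to 85000 CPM in WT libraries, and 1 of them was lower, P2ry12, a purinergic receptor (log2 fold change -0.50, edgeR adjusted p = 0.0301, lost without DKO 1, DKO 2, DKO 3, WT 1, WT 2, WT 4 or WT 5 at 0.0527 to 0.0841). Monocyte markers moved with Tlr1, summing to 10.4 to 15.0 CPM in DKO and 3.91 to 8.95 CPM in WT libraries. Of this list 4 of 6 genes were tested and 1 was higher, Cd44, a hyaluronan receptor (log2 fold change 2.45, edgeR adjusted p = 0.00314), while Ly6c2 had 0 to 4 counts per library and Chil3 had 0 in all. Markers of border-associated macrophages summed to 6.86 to 26.8 CPM in DKO and 4.62 to 15.6 CPM in WT libraries, a range set by Mrc1, which stood at 19.3 to 21.7 CPM in DKO 4 and DKO 5 and 11.02 to 15.3 CPM in WT 4 and WT 5, but at 3.77 to 5.51 CPM in the libraries numbered 1 to 3 of both genotypes. Of these, 3 of 6 were tested and the chemokine Pf4 was higher (log2 fold change 4.67, edgeR adjusted p = 0.000518), with Lyve1 and Cd163 at 0 counts in all libraries. The part of such cells in the Tlr1 result was not tested.

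B cell markers summed to 569 to 911 CPM in DKO and 424 to 704 CPM in WT libraries, most of it from Ighm. Of 7 markers 3 were tested and 0 were called by edgeR, with 1 at an unadjusted p under 0.05 (Cd22, log2 fold change 1.59, adjusted p = 0.0687), while Pax5 had 0 counts in every library. Such an unadjusted p was found for 3244 of all 13916 genes tested. Dendritic cell markers summed to 2.23 to 4.24 CPM in DKO and 2.22 to 3.04 CPM in WT libraries, and neutrophil markers to at most 0.171 CPM in DKO and 0.0395 CPM in WT libraries. In 3 further lists single genes were lower, beside 1.85% of all genes tested. They were Il7r of 2 tested T and NK cell markers (log2 fold change -1.44, edgeR adjusted p = 0.00369), Slc1a3 of 4 tested astrocyte markers (-0.83, adjusted p = 0.00401) and Pecam1 of 3 tested endothelial markers (-3.12, adjusted p = 7.71e-06). Their part in the receptor results was not tested.

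Of the genes that serve the receptors, 13 of the 97 tested on the pathway lists were called, 10 higher and 3 lower, beside 6.19% called, 4.34% higher and 1.85% lower, over all genes tested. Only Irf7 and Nfkb1 kept their call whichever library was left out. For the other 11 the call was lost without at least 5 of the 10 libraries, at edgeR adjusted p of 0.0515 to 0.1101. Their fold changes kept their direction throughout, for example at log2 values of 0.35 to 0.42 for Ctsl, 0.42 to 0.53 for Nfkb2, 1.42 to 2.01 for Relb, 1.64 to 2.44 for Peli1 and -0.69 to -0.54 for Nlrp3 with 1 library left out. Leaving out DKO 1 to DKO 5 in turn kept 2, 4, 10, 6 and 3 of the 13 calls, and leaving out WT 1 to WT 5 in turn kept 5, 5, 12, 3 and 2.

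**Figure D5:**
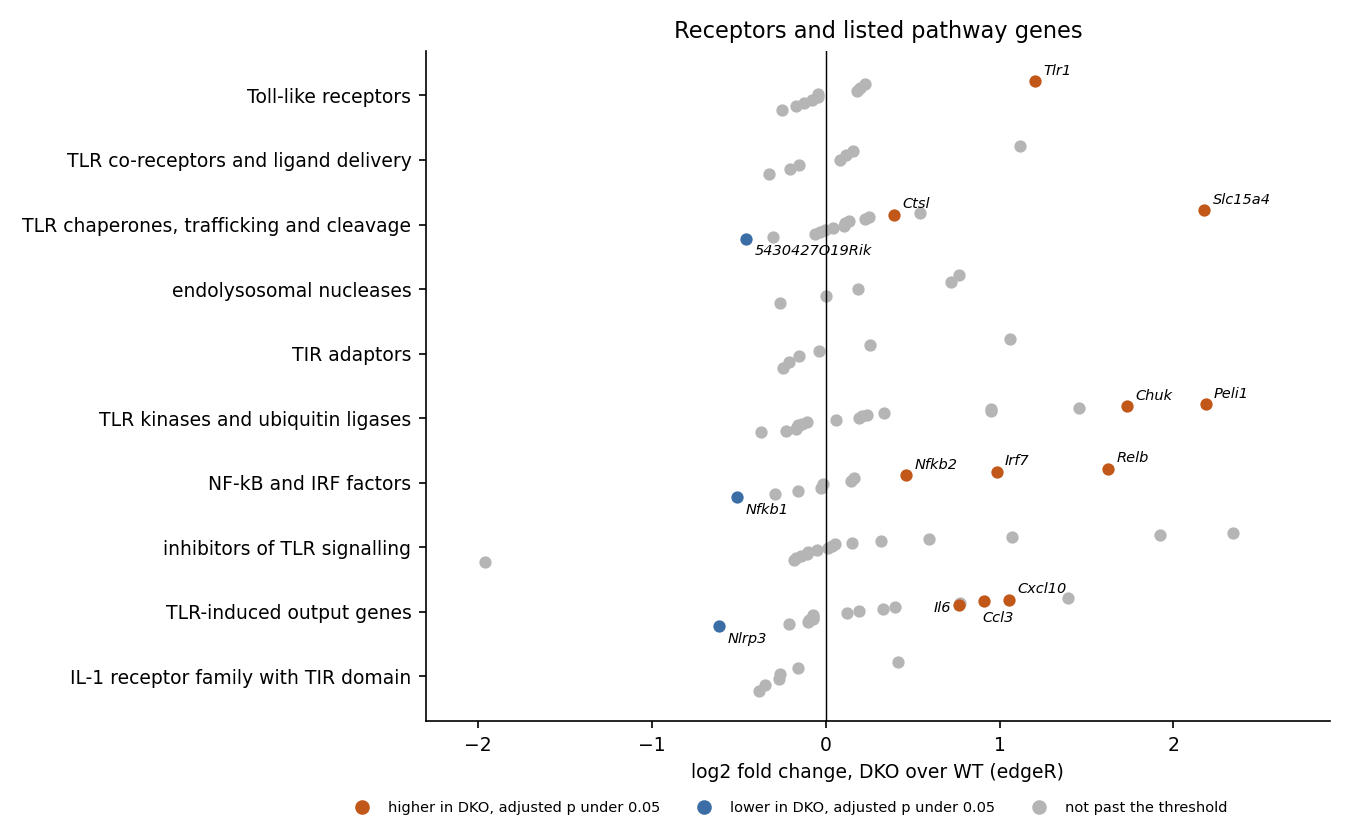
Log2 fold change, DKO over WT (edgeR), of each tested gene of the receptors and of 9 pathway lists, with called genes named in orange (higher in DKO) or blue (lower in DKO) and the others in grey. Tlr1 stands at 1.20 apart from the other receptors, which lie between -0.25 and 0.22, and the calls of the lists go in both directions.

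NF-kB and IRF factors, which act at the end of the pathway, held 3 of 10 higher and 1 lower (median log2 fold change 0.06), where all genes tested had 4.34% higher and 1.85% lower. Irf7, an interferon-inducible factor that drives type I interferon genes, had 10.9, 8.21, 13.9, 12.8 and 11.4 CPM in DKO 1 to DKO 5 and 6.23, 5.39, 6.09, 6.66 and 4.55 CPM in WT 1 to WT 5. Every DKO library lay above every WT library, as in 4.33% of all genes tested (log2 fold change 0.98, standard error 0.17, edgeR adjusted p = 0.00565). Nfkb1, which encodes the p105 precursor of the p50 subunit, had 136, 119, 127, 155 and 154 CPM in DKO 1 to DKO 5 and 185, 191, 184, 203 and 221 CPM in WT 1 to WT 5. It was lower in all DKO libraries (log2 fold change -0.51, standard error 0.10, edgeR adjusted p = 0.0116), and the call was lost without DKO 3, WT 1 and WT 5 together (adjusted p = 0.0688). The subunits of the noncanonical branch, Nfkb2 (0.46, edgeR adjusted p = 0.0323) and Relb (1.62, edgeR adjusted p = 0.0393), were higher, and the genotypes did not overlap for either, which holds for 7.62% of all genes tested in one or the other direction. The call of Nfkb2 was lost without DKO 1, DKO 2, DKO 4, WT 1, WT 4 or WT 5 (0.0568 to 0.0898) and that of Relb without DKO 1, DKO 2, DKO 5, WT 1, WT 2, WT 4 or WT 5 (0.0659 to 0.101).

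Among the kinases and ubiquitin ligases between adaptors and factors, 2 of 17 were higher (4.34% over all genes tested) and none lower (median log2 fold change 0.19), Peli1, a Pellino ubiquitin ligase, and Chuk, the IKK-alpha subunit. Peli1 had 73.0, 121, 17.7, 11.5 and 44.9 CPM in DKO 1 to DKO 5 and 11.1, 7.98, 15.6, 11.8 and 12.4 CPM in WT 1 to WT 5, so that its fold change (log2 2.19, standard error 0.54, edgeR adjusted p = 0.0374) came from DKO 1, DKO 2 and DKO 5. Chuk had 26.8, 27.8, 15.2, 20.3 and 31.1 CPM in DKO 1 to DKO 5 and 2.96, 4.58, 17.7, 6.66 and 4.59 CPM in WT 1 to WT 5 (log2 fold change 1.73, standard error 0.43, edgeR adjusted p = 0.0381). WT 3, whose Gm23935 share was like that of DKO libraries, was the highest WT library for Chuk, Peli1, Relb and Slc15a4, and the part of this library difference in their calls was not tested. Peli1 was not called without DKO 1, DKO 2, DKO 5, WT 1, WT 2, WT 4 or WT 5 (0.0641 to 0.0918), nor Chuk without any library but DKO 3 and WT 3 (0.0517 to 0.0892).

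Of 14 tested genes on the list of TLR chaperones, trafficking and cleavage, 2 were higher and 1 lower (median log2 fold change 0.11), beside 4.34% higher and 1.85% lower over all genes tested. Ctsl, a cathepsin that cleaves endosomal receptors into their active form, was higher in every DKO library than in any WT library, as were 4.33% of all genes tested, with 1684 to 2006 CPM in DKO and 1240 to 1519 CPM in WT libraries (log2 fold change 0.39, standard error 0.09, edgeR adjusted p = 0.0282, lost without DKO 1, DKO 4, DKO 5, WT 2 or WT 5 at 0.0568 to 0.0695). Slc15a4, a lysosomal histidine transporter needed for Tlr7 and Tlr9 signalling, was high in DKO 1, DKO 2 and DKO 5, whose highest value was 210.2 CPM, while DKO 3 and DKO 4 held 40.1 and 28.4 CPM and WT 1 to WT 5 held 26.8, 19.1, 41.7, 21.4 and 21.5 CPM. The highest WT library was thus WT 3, the one with a Gm23935 share like that of DKO libraries, and the part of this in its call was not tested. Its log2 fold change was 2.18 (standard error 0.51, edgeR adjusted p = 0.0288, lost without DKO 1, DKO 2, DKO 5, WT 1, WT 2, WT 4 or WT 5 at 0.0634 to 0.0755). The gene 5430427O19Rik, the mouse counterpart of the adaptor TASL that works with Slc15a4, went the other way (log2 fold change -0.46, edgeR adjusted p = 0.0369), at 46.7 to 61.9 CPM in DKO and 60.1 to 82.9 CPM in WT libraries, and lost its call without any library but DKO 3 and WT 3 (0.0676 to 0.0986).

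Genes that TLR signals are known to induce held 3 higher and 1 lower of 16 tested (median log2 fold change 0.16), beside 4.34% higher and 1.85% lower over all genes tested. The chemokine Ccl3 had 45.6 to 90.8 CPM in DKO and 26.5 to 54.2 CPM in WT libraries (log2 fold change 0.91, edgeR adjusted p = 0.0352). The cytokine Il6 was scarce, at 6.56 to 10.04 CPM in DKO and 3.83 to 6.95 CPM in WT libraries (log2 fold change 0.77, edgeR adjusted p = 0.0437), as was Cxcl10, an interferon-inducible chemokine, at 5.67 to 9.62 CPM in DKO and 2.33 to 6.56 CPM in WT libraries (log2 fold change 1.05, edgeR adjusted p = 0.0457). Nlrp3, the inflammasome sensor, was lower, at 9.74 to 14.8 CPM in DKO and 14.6 to 22.6 CPM in WT libraries (log2 fold change -0.61, edgeR adjusted p = 0.0460). The genotypes overlapped for these 4 genes. Their calls were lost without DKO 1, DKO 2, DKO 5, WT 1, WT 4 or WT 5 for Ccl3 (0.0663 to 0.0931), without any library but DKO 2, WT 1 and WT 3 for Il6 (0.0784 to 0.1101), without any but WT 1 for Cxcl10 (0.0515 to 0.102) and without any but WT 2 and WT 3 for Nlrp3 (0.0600 to 0.104).

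The other pathway lists held no call with edgeR. Over all 13916 genes tested, 3244 had an unadjusted edgeR p under 0.05. Of the same 13916 genes, DESeq2 called 1629, limma voom 1158, limma voom with quality weights 1078 and robust edgeR 759. For the TIR adaptors the count of edgeR calls was 0 of 6, with 3 at an unadjusted p under 0.05, and DESeq2 called 1. Myd88, the adaptor shared by most TLRs, had 112 to 129 CPM in DKO and 132 to 146 CPM in WT libraries without overlap, as had 7.62% of all genes tested in either direction (log2 fold change -0.25, 95% interval -0.41 to -0.09, edgeR adjusted p = 0.0686), and Pik3ap1, the adaptor BCAP, had a log2 fold change of 0.25 (edgeR adjusted p = 0.253). For the inhibitors of TLR signalling it was 0 of 16, with 4 at an unadjusted p under 0.05, and DESeq2 called 3, limma voom 3, limma voom with quality weights 2 and robust edgeR 0. Their most abundant members, Nfkbia, which retains NF-kB in the cytosol, and Zfp36, which destabilises cytokine mRNAs, had log2 fold changes of -0.05 and 0.32 (edgeR adjusted p = 0.812 and 0.390). For the IL-1 receptor family, which shares the TIR domain, it was 0 of 6, with 1 at an unadjusted p under 0.05, and Il1rl2 and Il1rap had log2 fold changes of -0.35 and -0.26 (edgeR adjusted p = 0.228 and 0.385).

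Co-receptors and ligand delivery proteins held 0 calls of 7 tested, with 2 at an unadjusted p under 0.05, and endolysosomal nucleases 0 of 5, with 0. An unadjusted edgeR p under 0.05 was found for 3244 of all 13916 genes tested. For the co-receptors, the nucleases and the IL-1 receptor family, the count was also 0 with DESeq2, with robust edgeR and with either form of limma voom. Grn, the progranulin that delivers CpG DNA to Tlr9, and Ly86, the partner of the TLR-like protein Cd180, had log2 fold changes of 0.12 and 0.08 (edgeR adjusted p = 0.618 and 0.699). Of the nucleases that process nucleic acids in the compartment of the endosomal receptors, Pld4 had a log2 fold change of -0.26 (edgeR adjusted p = 0.388). Rnaset2b set single WT libraries apart, with 1088 to 1517 CPM in DKO 1 to DKO 5 and 196, 1063, 1329, 1087 and 232 CPM in WT 1 to WT 5, so that WT 1 and WT 5 were the low libraries (log2 fold change 0.72, edgeR adjusted p = 0.381). Rnaset2b has a near-identical copy, Rnaset2a, with which it can share reads, so its level is uncertain.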

How the data were processed

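Microglia RNA of 5 DKO and 5 WT libraries was sequenced, and per the labels reads were checked with FastQC 0.11.8, trimmed with cutadapt 2.6 and aligned to mm10 (STAR 2.5.3a). The quantification tool was not given in the sources used here, and so the gene annotation behind it is open too. The deposited tables hold for each gene an estimated count without normalization, a TPM scaled by the authors' tool to a common total per library, and the length and effective length of its transcripts in bases. Total estimated counts were 22483284 to 26109349 per library, and this depth enters the standard errors below.

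After rounding, counts were filtered with filterByExpr at a minimum of 10, TMM factors were computed, and edgeR 4.0.16 under R 4.3.3 compared DKO with WT by its quasi-likelihood F test without covariates, with Benjamini-Hochberg adjustment over 13916 genes at 0.05. The study's own tool, dream, is not used here, and limma voom is an alternative. Levels of different receptors were compared as CPM per kb of effective length, and lengths by two-sided exact permutation tests with scipy 1.17.1. Tables were handled with data.table (version 1.17.8) and pandas 2.3.3, and figures drawn with matplotlib 3.10.9. The gene test was tested on simulated data.

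The text names all receptors, the targeted genes, up to 4 called members of each pathway list with the smallest p or, where none was called, the 2 of highest CPM, and called markers, of which some are not reported here. Besides these, Fam114a1, Gm23935, Cd22, Mrc1 and Cd79b, and markers named for their low counts, were chosen after their values were seen. Members, lists and alternatives were chosen with earlier results of these data known. The settings tried were scaling by RLE, by upper quartile or not at all, DESeq2 1.42.0, limma 3.58.1 (voom with and without quality weights), robust edgeR, all genes without a filter, genes with 1 CPM or more in 5 libraries, log2 TPM with 1 or 0.1 added and with Gm23935 left out, an offset for effective length, a block for the replicate number, a term for the numbers 1 to 3 against 4 to 5, each of these sets alone, and leaving out WT 1 and WT 5 or each library in turn. Leaving out DKO 3 with WT 1 and WT 5, and summing Tlr1 and Tlr6, were added after seeing the data. Coordinates are of GRCm38 in GENCODE M21, where 98.34% of the gene IDs were found with the same version, and sequences are those of the RefSeq table on GRCm38.p6.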

Additional observations from a re-analysis of the deposited data

Results flagged for a closer look

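The CPM of each receptor was screened for a library set apart from the other 4 of its genotype by Dixon's 95% critical value, 0.71 for groups of 5, over 20 groups. Chance sets apart about 1 in 20 such groups. In DKO 3, a library with more mitochondrial RNA (1.58% of counts), Tlr4 stood at 324 CPM, against 203 to 235 CPM in the other DKO libraries. In WT 5, the other library concerned, Tlr9 stood at 2.44 CPM, against 3.67 to 4.11 CPM in the other WT libraries, or 65 counts against 92 to 114. WT 5 also held more mitochondrial RNA (1.54%), but WT 1, which held the most (1.75%), had the highest Tlr9 level of the WT libraries, and a cause was not tested.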

How the results depend on the processing

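Of the 10 receptors, Tlr1 was the one called with every scaling factor, tool and filter tried, and the call was lost only with the numbers 4 to 5 alone (0 receptors called). Leaving out 1 library gave 1 receptor each time. There were 2 with log2(TPM + 1) and with log2(TPM + 0.1), where Tlr3 joined as lower, and 2 without WT 1 and WT 5, where Tlr6 joined as higher. No call was reversed. A receptor that passed under neither setting was counted as the same whatever its sign. The genes called over all genes tested were 862, and 1629 with DESeq2, 4815 with log2(TPM + 1), 4820 with log2(TPM + 0.1), 1431 with a term for the numbers 1 to 3 against 4 to 5, 298 with 1 to 3 alone, 57 with 4 to 5 alone, 449 without WT 1 and WT 5, 388 without DKO 3 as well, and 402 to 1618 with 1 library left out. The calls on the pathway lists were 13, and 43 with log2(TPM + 1), 44 with log2(TPM + 0.1), 2 with 1 to 3 alone, 0 with 4 to 5 alone, 5 without WT 1 and WT 5, 4 without DKO 3 as well, and 2 to 17 with 1 library left out. The cause of these shifts was not tested. Of the called genes, 70.07% were higher in DKO, 54.58% with upper-quartile factors, 53.73% with no factors, 76.95% with no filter, 59.82% with the term for the numbers, 82.46% with 4 to 5 alone, 13.04% with log2(TPM + 1), 13.17% with log2(TPM + 0.1) and 54.97% without Gm23935. The median of all genes was -0.11 with upper-quartile factors, -0.26 with log2(TPM + 1) and -0.35 with log2(TPM + 0.1). On those scales Tlr6 stood at 0.11, -0.26 and -0.26. The order of the receptors per length in DKO libraries was the same by TPM, and the count of receptors with a changed length was 0 with any library left out.

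Single replicate numbers did not pair the libraries. Same-numbered libraries correlated at -0.096, 0.064, -0.235, 0.199 and 0.105 in their deviations from the group means, and 1 of 5 DKO libraries matched its own number best. With the number as a replicate block, 547 genes, 1 receptor (Tlr1, log2 fold change 1.20, edgeR adjusted p = 0.00562) and 5 genes of the pathway lists were called. Numbers 1 to 3 and 4 to 5 nevertheless mark sets that stood apart in both genotypes, which the term for the numbers takes up. For Tlr9, with 61 to 114 counts per library, depth limits what could be detected.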
